A study of Mus musculus with 12 samples.

Results

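Homeobox, Pax and T-box genes encode the transcription factors that lay out the body axis and specify organs in the embryo. The set described here held 100 mouse genes of the 55367 in the count table, chosen by name alone: 39 Hox genes of the 4 clusters, 14 Nkx, 12 Tbx, 9 Pax, 8 Lhx, 6 Dlx, 6 Irx genes and 6 genes of the sine oculis family. Tbx21, a T-box factor of natural killer and T cells, matched the name pattern as well and was left out of the 101 matches. RNA came from whole blood of CB17-SCID mice that carried a xenograft of the human bladder cancer line HT1376. SCID mice lack mature T and B cells. The mice had been given vehicle, or CPI-0209 at 35 mpk (mg per kg) by mouth once a day, for 11 days. Blood of CPI-0209 mice was taken 1, 6 or 24 h after the last dose, and the labels give no bleeding time for vehicle. Each of the 4 groups had 3 libraries, 12 in all, and all mice of all groups bore the tumour graft. The labels do not say whether the 3 libraries of a group came from separate mice, so p-values here measure only the spread between these libraries, which may be technical.

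Polycomb repressive complex 2 (PRC2) places methyl groups on lysine 27 of histone H3 through its catalytic subunits EZH2 and EZH1, and CPI-0209 (tulmimetostat) inhibits both. Developmental regulators with CpG-rich promoters are its best known targets: in differentiated cells that do not use them, their promoters carry the mark and are silent. Some Hox genes are an exception in blood, since Hoxb4 and its neighbours are active in haematopoietic stem and progenitor cells. The question put to the counts was whether these genes were detected more often, or at a higher level, after CPI-0209 than after vehicle.

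Library totals ran from 6496573 to 9978215 counts, and the pooled totals were 23885516 counts for vehicle, 24056498 at 1 h, 28693556 at 6 h and 21637346 at 24 h. Levels are CPM, counts scaled to a library total of 1000000, where the total is as counted or, where said, scaled by TMM, a factor that corrects for a few genes taking a large share. The scaling matters at 6 h, where the median log2 fold change of all 13384 tested genes was -0.04 with TMM and -0.50 with library totals, and the calls were 543 higher and 105 lower with TMM but 344 higher and 1488 lower with totals. Transcripts of 17 reticulocyte genes (red cell precursors, for example Alas2 and Slc4a1) took 60970 to 69460 CPM in the 6 h libraries, against 44040 to 47940 CPM in the vehicle libraries, and their part in the results below was not tested. In bulk blood, fewer cells of a type and less RNA per cell cannot be told apart.

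The promoter sequences show the feature that marks this set and that its names did not choose. RefSeq windows of 300 bases on GRCm38.p6, from 250 before to 50 after the start, were held for 65 of the 100 genes. Their median number of CG dinucleotides was 16, against 7 in the windows of all 27025 genes. Of the 65 windows 73.8% held 10 or more CG, against 43.9% of all windows, and the median GC share was 60.0%, against 52.7%. Members without a single count in any library and members with counts had similar windows: the medians were 15 CG in 22 windows and 17 CG in 43 windows. The windows below are those of the 3 members with enough counts to be tested, Lhx1, Tbx6 and Hoxb4, and of Six2, a regulator of nephron progenitors. Six2 was picked as the member with no count in any library whose window held most CG. Each is written 5′ to 3′ in lower case with every CG in capitals.
Lhx1, chr11:84525485-84525784, minus strand: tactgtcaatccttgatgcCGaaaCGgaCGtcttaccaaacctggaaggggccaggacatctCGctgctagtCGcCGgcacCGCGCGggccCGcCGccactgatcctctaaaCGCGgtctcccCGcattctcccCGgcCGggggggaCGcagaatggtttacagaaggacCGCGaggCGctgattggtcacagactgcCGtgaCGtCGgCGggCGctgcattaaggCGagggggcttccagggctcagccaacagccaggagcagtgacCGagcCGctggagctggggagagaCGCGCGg
Tbx6, chr7:126781233-126781532, plus strand: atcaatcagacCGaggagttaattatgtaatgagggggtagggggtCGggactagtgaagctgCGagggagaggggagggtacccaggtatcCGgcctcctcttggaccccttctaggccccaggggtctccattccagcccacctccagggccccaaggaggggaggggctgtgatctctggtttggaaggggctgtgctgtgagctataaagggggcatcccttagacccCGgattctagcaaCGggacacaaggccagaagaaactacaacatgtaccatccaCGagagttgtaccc
Hoxb4, chr11:96318017-96318316, plus strand: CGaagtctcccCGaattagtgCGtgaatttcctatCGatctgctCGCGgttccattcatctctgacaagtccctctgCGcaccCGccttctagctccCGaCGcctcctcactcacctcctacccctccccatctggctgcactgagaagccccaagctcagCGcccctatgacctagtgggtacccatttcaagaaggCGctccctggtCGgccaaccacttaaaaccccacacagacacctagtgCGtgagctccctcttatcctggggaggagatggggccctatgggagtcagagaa
Six2, chr17:85688205-85688504, minus strand: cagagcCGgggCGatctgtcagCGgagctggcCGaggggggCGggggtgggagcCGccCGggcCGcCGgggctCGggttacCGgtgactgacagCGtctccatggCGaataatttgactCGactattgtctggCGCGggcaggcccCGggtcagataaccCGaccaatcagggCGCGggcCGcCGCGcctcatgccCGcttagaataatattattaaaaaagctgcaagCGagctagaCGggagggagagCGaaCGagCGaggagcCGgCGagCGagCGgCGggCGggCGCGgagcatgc
The Lhx1 window held 31 CG, with an observed to expected ratio of 0.961, and the Six2 window held 37 CG, with a ratio of 1.13. The Hoxb4 window lay lower, at 14 CG and a ratio of 0.593. The Tbx6 window, with 7 CG and a ratio of 0.286, equalled the median of all genes in CG number. Since Six2 was picked for its CG number, its window does not stand for the members without a count. Of the 22 windows of members without a count 72.7% held 10 or more CG, against 74.4% of the 43 windows of members with counts.

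As a group the developmental regulators were close to silent in blood. They took 1766 of 98272916 counts over the 12 libraries, 0.0018% or 18.0 CPM. No count was recorded for 37 of the 100 genes in any library, which allows each at most 0.0305 CPM over all libraries. A further 44 genes had 1 to 9 counts, 141 together, and 19 had 10 or more. Of the 63 genes with a count, 21 were counted in 1 library only and 3 in all 12. These 3, Lhx1, Tbx6 and Hoxb4, held 1204 counts, or 68.2% of the total.

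The silent 37 came from every family. Among the Hox genes they were Hoxa11, Hoxb6, Hoxb7, Hoxb9, Hoxb13, Hoxc5, Hoxc11, Hoxc13, Hoxd1, Hoxd8, Hoxd9 and Hoxd12. Of the 8 Lhx genes, 6 (Lhx2, Lhx4, Lhx5, Lhx6, Lhx8 and Lhx9, which pattern neurons, eye, gonad and pituitary) were at 0, and so were the Nkx factors of thyroid, lung, heart and ventral neural tube (Nkx1-2, Nkx2-1, Nkx2-2, Nkx2-3, Nkx2-5, Nkx2-6, Nkx2-9 and Nkx3-2). Pax1, Pax3 and Pax4, which act in vertebrae, neural crest and muscle, and pancreas, were at 0 as well. So were Dlx5, Dlx6, Irx1, Irx4, Six2, Tbx5, Tbx19 and Tbx22. CPI-0209 groups were included in each of these zeros.

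The summed counts of the 100 genes were not higher at all times after CPI-0209. Per library the sum was 19.4, 16.7 and 19.5 CPM in vehicle, 21.2, 24.3 and 19.8 CPM at 1 h, 7.54, 13.8 and 17.5 CPM at 6 h, with 25.1, 19.3 and 15.0 CPM at 24 h. On this scale the 1 h libraries all lay above the 3 vehicle libraries, the 6 h range overlapped vehicle at its top, and the 24 h libraries lay on both sides of vehicle. On TMM-scaled sizes the lowest 1 h library, at 18.2 CPM, lay under the highest vehicle library. Means were 21.8 ± 2.28 CPM at 1 h, 12.9 ± 5.05 at 6 h and 19.8 ± 5.08 at 24 h, against 18.5 ± 1.60 CPM in vehicle (SD, n = 3 each).

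Pooling the raw counts by group gave the same picture. There were 525 counts at 1 h, against 440 in vehicle, which is 21.8 CPM (95% Poisson interval 20.0 to 23.8) against 18.4 CPM (16.7 to 20.2), a log2 ratio of 0.24. At 6 h there were 378 counts, 13.2 CPM (11.9 to 14.6), and a log2 ratio to vehicle of -0.48, which became -0.03 on TMM-scaled library sizes. At 24 h there were 423 counts, 19.6 CPM (17.7 to 21.5), and a log2 ratio of 0.09. These intervals cover counting error only and not the spread between libraries. The 1 h excess was carried by Lhx1: without it the log2 ratio was 0.04.

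The 97 genes too low to be tested one by one had fewer pooled counts after CPI-0209 at each time than after vehicle, within the spread of the libraries. Their pooled counts were 156 in vehicle, 137 at 1 h, 155 at 6 h and 114 at 24 h. Means were 5.75 ± 0.851 CPM at 1 h, 5.35 ± 1.71 at 6 h and 5.31 ± 0.735 at 24 h, against 6.55 ± 0.785 CPM in vehicle (SD, n = 3 each), and all 3 CPI-0209 ranges overlapped the vehicle range. All 41983 genes that were not tested summed to 2125 ± 198 CPM at 1 h, 1540 ± 81.1 at 6 h and 2119 ± 499 at 24 h, against 2087 ± 218 CPM in vehicle. Of the 155 counts at 6 h, 35 were of Pax5, nearly all from 1 library. Without Pax5 the 6 h group had 120 counts and 4.18 ± 0.0652 CPM by library totals, against 151 counts and 6.34 ± 0.751 CPM in vehicle. The TMM factors were 0.766 to 0.812 in the 6 h libraries and 1.03 to 1.12 in vehicle. TMM scaling would thus raise the 6 h value and lower that of vehicle, and no TMM-scaled value of this sum is given here.

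**Figure D1:**
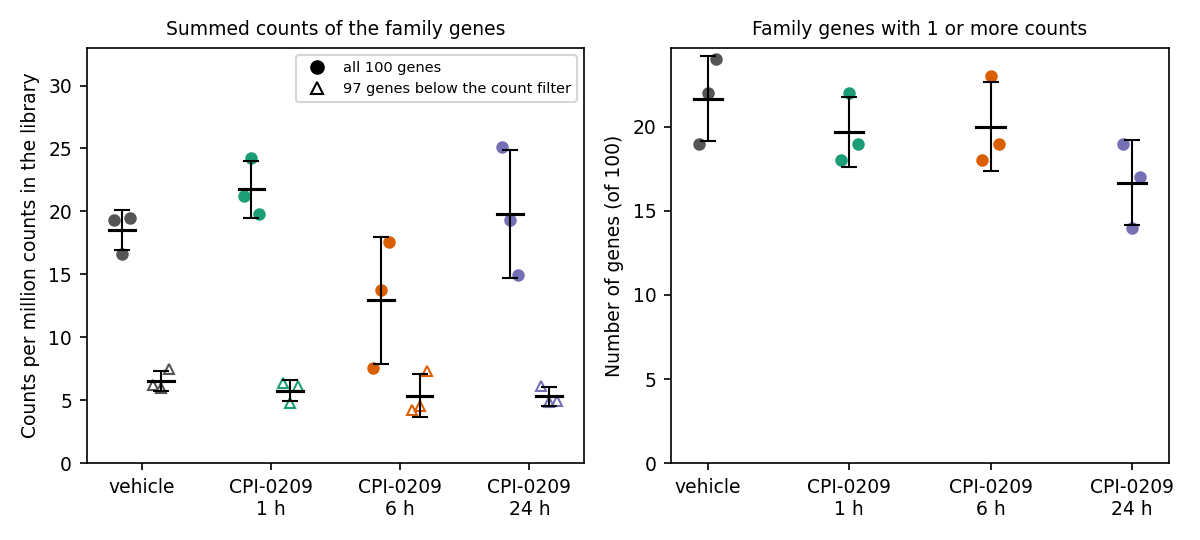
Summed counts in CPM (left; filled circles, all 100 genes; open triangles, the 97 genes not tested) and number of the 100 genes with at least 1 count (right) in each library, by group on the horizontal axis; short lines are group means and error bars SD, n = 3. The 1 h libraries sum to 19.8 to 24.3 CPM and the 6 h libraries spread from 7.54 to 17.5, while the vehicle libraries lie at 16.7 to 19.5; the number of genes seen per library ranges from 14 to 24 with no group apart.

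Fewer members were detected at 1 and 24 h than in vehicle, and slightly more at 6 h. With a pooled group counted as detecting a gene from 1 count on, 34 members were detected at 1 h, 41 at 6 h and 25 at 24 h, against 38 in vehicle. The 6 h group was also the deepest. Thinned to the smallest pooled total, the expected numbers were 32.8 at 1 h, 36.5 at 6 h and 25 at 24 h, against 36.9 in vehicle. Over all protein-coding genes the detected share was 68.0% at 1 h, 67.3% at 6 h and 66.4% at 24 h, against 67.9% in vehicle. Asking for a count in at least 2 libraries of a group left 14, 14 and 15 members at 1, 6 and 24 h, against 22 in vehicle. No share of protein-coding genes under this stricter rule is given here, so whether the drop is particular to these members is not known. Single libraries detected 18, 22 and 19 members at 1 h, 18, 23 and 19 at 6 h, with 19, 14 and 17 at 24 h, against 19, 22 and 24 in vehicle.

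Which genes were counted changed from group to group at the level of single reads. There were 14 members with a count in all 4 groups, 25 in CPI-0209 groups alone and 7 in vehicle alone. The CPI-0209 groups together had 74387400 counts, against 23885516 in vehicle, so they had more chances to record a rare transcript, and 16 of the 25 were seen in 1 library only. Of the 62 members at 0 in vehicle, 10 (16.1%) had a count at 1 h, 16 (25.8%) at 6 h and 7 (11.3%) at 24 h. The same shares over protein-coding genes at 0 in vehicle were 15.5%, 14.4% and 11.7% at 1, 6 and 24 h. The opposite step occurred too: of members at 0 in the CPI-0209 group, 14 of 66 (21.2%) at 1 h, 13 of 59 (22.0%) at 6 h and 20 of 75 (26.7%) at 24 h had a count in vehicle, where protein-coding genes gave 15.3%, 16.0% and 15.7%.

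With at least 3 counts on the side that was counted, the lists were short in both directions. Hoxd3 at 1 h (3 counts), Hoxa10, Hoxa13 and Pax2 at 6 h (4, 4 and 7 counts) and Hoxb5 and Irx5 at 24 h (3 counts each) were at 0 in vehicle. With 1 gene in all at 1 h, 3 at 6 h and 3 at 24 h, that is 1.61%, 4.84% and 4.84% of the 62 members, beside 5.54%, 5.35% and 4.35% of protein-coding genes. Library replicate 3 at 6 h held all 4 counts of Hoxa13, which shapes the digits and the genital tract, 3 of the 4 counts of Hoxa10 and 4 of the 7 counts of Pax2, a kidney regulator. In the opposite direction 4 members at 1 h, 4 at 6 h and 6 at 24 h were at 0 with 3 or more counts in vehicle, which is 6.06%, 6.78% and 8.0% of those at 0, beside 4.35%, 5.35% and 4.40% of protein-coding genes. Tbx18, a factor of the epicardium and sinus node, was in all 3 of these lists: it had 5 counts in vehicle and none in any CPI-0209 library.

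**Figure D2:**
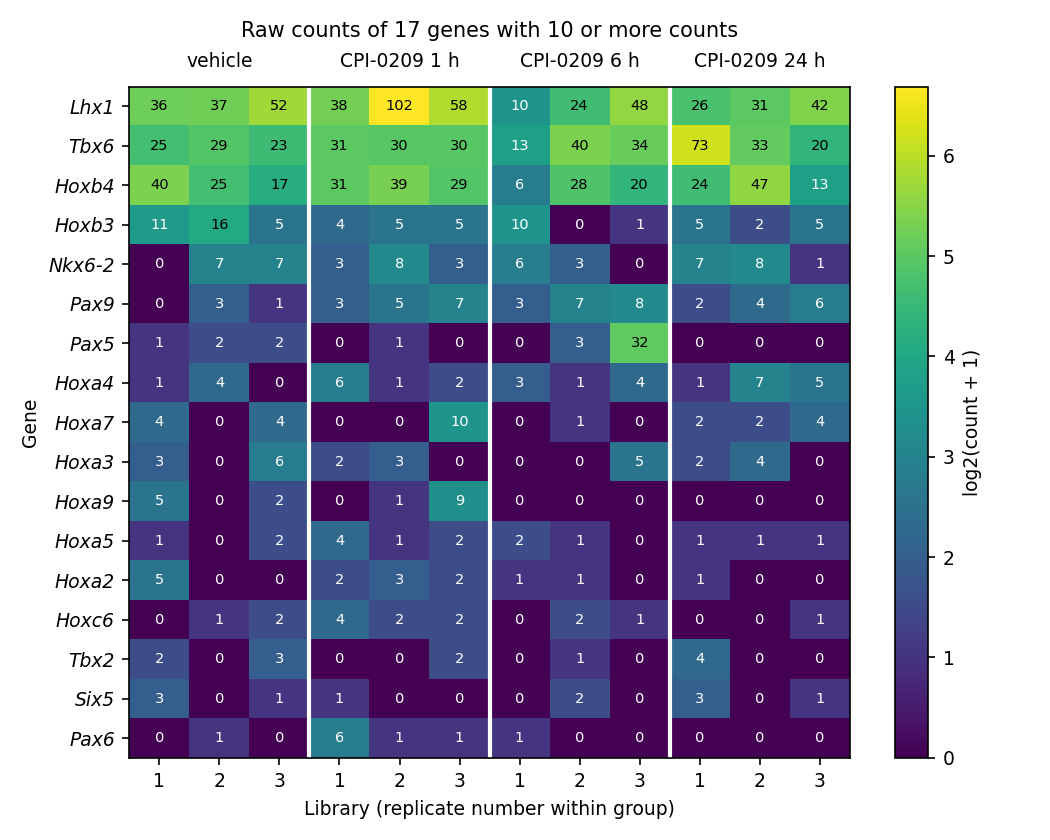
Raw counts of 17 members with 10 or more counts over the 12 libraries (rows) in each library (columns, by group), printed in the cells; the colour shows log2(count + 1). Lhx1, Tbx6 and Hoxb4 have counts in every column, and the single bright cell of Pax5 is library replicate 3 at 6 h, with 32 counts.

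Of the 100 members, 3 passed the filter on low counts and were tested one by one with edgeR. None of them was called in any comparison at an adjusted p under 0.05, and 0 had an unadjusted p under 0.05. The calls over all 13384 genes were 0.194% at 1 h, 4.84% at 6 h, 0.105% at 24 h, 0.934% for the mean of the 3 times and 0.755% for any difference among the 3 times. With so few members tested, 0 called is close to what these shares give. DESeq2 and limma-voom called 0 members too, but few could be called. DESeq2 gave an adjusted p to 3 members at 1 h, 7 at 6 h, 3 at 24 h and 3 for the mean of the times. The limma-voom fit used the same filter as edgeR. DESeq2 gave an unadjusted p under 0.05 to 0 members at 1 h, 1 at 6 h, 0 at 24 h and 1 for the mean of the times.

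Lhx1 encodes a LIM homeodomain factor of the kidney, the head organizer and neurons (ENSMUSG00000018698, GRCm38 chromosome 11, 84518284 to 84525535, minus strand). Its counts were 36, 37 and 52 in vehicle, 38, 102 and 58 at 1 h, 10, 24 and 48 at 6 h, with 26, 31 and 42 at 24 h. In 1 library at 1 h the count was high and in 1 library at 6 h it was low, and each CPI-0209 group overlapped vehicle. On TMM-scaled sizes the levels were 7.69 ± 3.46 CPM at 1 h, 3.55 ± 2.39 CPM at 6 h and 4.32 ± 1.95 CPM at 24 h, against 4.93 ± 1.47 CPM in vehicle (SD, n = 3 each). The log2 fold changes were 0.65 (SE 0.47) at 1 h, -0.46 (SE 0.49) at 6 h and -0.20 (SE 0.48) at 24 h, with edgeR adjusted p-values of 0.883, 0.656 and 0.951. The 95% interval at 1 h ran from -0.36 to 1.66, an interval that holds no difference as well as a rise of more than 2-fold. The test of any difference among the 3 times gave an adjusted p of 0.297.

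Tbx6 encodes the T-box factor that directs presomitic cells to a mesodermal fate (ENSMUSG00000030699, GRCm38 chromosome 7, 126781483 to 126785560, plus strand). Its counts were 25, 29 and 23 in vehicle, 31, 30 and 30 at 1 h, 13, 40 and 34 at 6 h, with 73, 33 and 20 at 24 h. On TMM-scaled sizes these are 4.22, 3.42 and 3.23 CPM at 1 h and 8.5, 3.57 and 3.13 CPM at 24 h, against 2.91, 3.12 and 2.93 CPM in vehicle. On this scale every CPI-0209 library at both times lay above the highest vehicle library, by a wide margin in 1 library at 24 h and by under 0.01 CPM in another, while the 6 h libraries lay on both sides. By library totals the 24 h library with 20 counts had 2.67 CPM, under the lowest vehicle library at 3.01 CPM, so the 24 h and vehicle groups overlapped. Groups apart in this way, with CPI-0209 higher, were seen for 8.92% of all tested genes at 1 h and 6.34% at 24 h. The log2 fold changes were 0.28 (SE 0.43) at 1 h, 0.34 (SE 0.43) at 6 h and 0.77 (SE 0.43) at 24 h, with edgeR adjusted p-values of 0.959, 0.721 and 0.677. The 24 h library of 73 counts was also the highest of the 12 for 11 epithelial genes (12.3 CPM) and for 12 genes of fibroblasts, muscle and endothelium (269.7 CPM). The latter sum was mainly Pecam1, with 17939 of the 19169 counts of the list over the 12 libraries. The same 24 h library held 30 of the 45 counts of Dcn and 17 of the 25 counts of Col3a1, both of the connective tissue matrix. The part of these genes in the Tbx6 value was not tested. Without that library the 24 h value was 0.17, and the 6 h value was -0.11 when libraries were scaled by their totals.

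Hoxb4 encodes the homeodomain factor known for expanding haematopoietic stem cells when overexpressed (ENSMUSG00000038692, GRCm38 chromosome 11, 96318267 to 96321638, plus strand). It held 52.4% of the 609 Hox counts. Its counts were 40, 25 and 17 in vehicle, 31, 39 and 29 at 1 h, 6, 28 and 20 at 6 h, with 24, 47 and 13 at 24 h. The 4 groups overlapped, and the lowest library was at 6 h. Levels were 3.93 ± 0.709 CPM at 1 h, 2.31 ± 1.30 CPM at 6 h and 3.31 ± 1.59 CPM at 24 h, against 3.17 ± 1.31 CPM in vehicle (TMM-scaled; SD, n = 3 each). The log2 fold changes were 0.31 (SE 0.48), -0.44 (SE 0.50) and 0.08 (SE 0.48) at 1, 6 and 24 h, with edgeR adjusted p-values of 0.958, 0.678 and 0.984. For the mean of the 3 times the log2 fold change was -0.02 (95% interval -0.86 to 0.82). The annotation places no other gene over Lhx1, Tbx6 or Hoxb4.

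Per length, Tbx6 was the most abundant of the 100, at 2.15 CPM per kilobase of exon over the 12 libraries. Hoxb4 and Lhx1 followed at 1.27 and 1.26 CPM per kilobase. The next, Nkx6-2, Hoxa4 and Hoxb3, lay at 0.283, 0.223 and 0.165 CPM per kilobase.

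**Figure D3:**
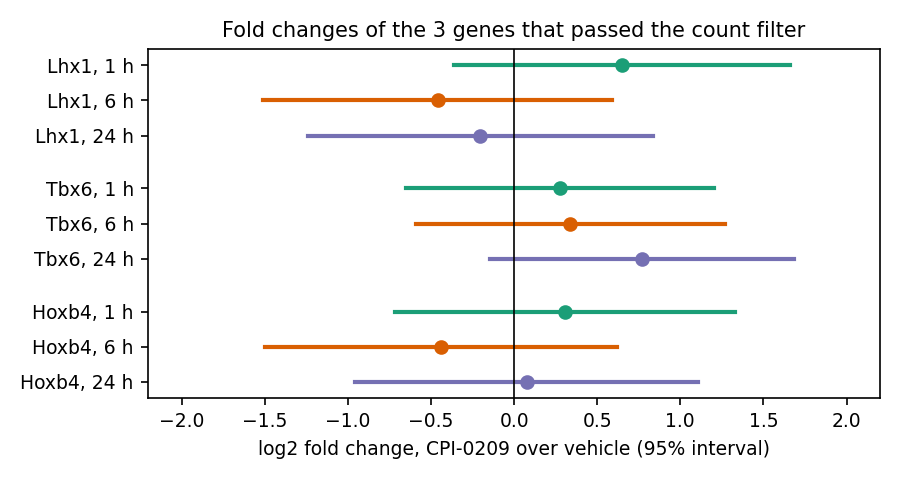
Log2 fold change of Lhx1, Tbx6 and Hoxb4, CPI-0209 over vehicle, from edgeR at 1, 6 and 24 h; points are estimates, horizontal lines their 95% intervals, and the line at 0 means no difference. All 9 intervals include 0, with the highest upper end at 1.68 for Tbx6 at 24 h.

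An unfiltered edgeR fit took in all 63 members with a count, among 25864 genes. It called 0 members at 1, 6 and 24 h and for the mean of the times, where 1.11%, 4.89%, 0.916% and 1.93% of all genes were called. Members with a higher and a lower estimate numbered 26 and 22 at 1 h and 28 and 26 at 6 h; at 24 h there were 18 higher and 27 lower. The smallest adjusted p-values were 0.858 at 1 h, 0.276 at 6 h and 0.735 at 24 h. At an unadjusted p under 0.05 there were 0 members at 1 h, Pax5 at 6 h and at 24 h, and 5 for the mean of the times, all lower after CPI-0209 and Dlx3, Hoxa9, Hoxb2 and Tbx18 among them. For the mean of the times that is 7.94% of the 63 members, beside 8.86% of all 25864 genes at the same threshold, of which 4.28% were lower. These were sparse genes with 5 to 7 vehicle counts, and the smallest adjusted p for the mean of the times was 0.316.

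Among the Hox clusters, Hoxb had most counts and Hoxd fewest. Pooled counts in vehicle, 1 h, 6 h and 24 h were 121, 115, 69 and 99 for the 10 Hoxb genes and 42, 50, 28 and 44 for the 11 Hoxa genes. They were 6, 13, 9 and 1 for the 9 Hoxc genes and 4, 4, 4 and 0 for the 9 Hoxd genes. The 39 Hox genes together averaged 7.61 ± 0.616 CPM at 1 h, 3.80 ± 0.717 at 6 h and 6.63 ± 1.91 at 24 h, against 7.28 ± 2.14 CPM in vehicle (SD, n = 3 each). Of the 3 times 6 h had the lowest sum. On TMM-scaled sizes the Hox sums were 3.88, 5.20 and 5.40 CPM at 6 h, against 8.72, 5.70 and 5.73 CPM in vehicle. All 3 libraries at 6 h thus lay below every vehicle library on that scale too, which is a description with no test.

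By position within the clusters, counts came mainly from the middle, and there mainly from Hoxb4, with 319 counts. The 15 genes of paralogue groups 4 to 8 had 428 counts, the 8 genes of groups 1 to 3 had 140, and the 16 genes of groups 9 to 13, which act at the posterior end of the body and in limbs, had 41. Groups 4 to 8 had 105 counts in vehicle, 136 at 1 h, 73 at 6 h and 114 at 24 h. Of these, Hoxb4 made up 82, 99, 54 and 84. Groups 9 to 13 had 12 counts in vehicle, 15 at 1 h, 14 at 6 h and none at 24 h, which allows up to 0.139 CPM there. In each group with counts 1 library held most of them. Replicate 1 held 9 of the 12 in vehicle, and replicate 3 held 10 of the 15 at 1 h and 11 of the 14 at 6 h.

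The 3' end of the clusters was lower after CPI-0209 in these libraries. Paralogue groups 1 to 3 summed to 1.19, 1.48 and 1.17 CPM at 1 h, 1.37, 0.502 and 0.601 CPM at 6 h, with 1.69, 1.18 and 1.34 CPM at 24 h, against 2.47, 2.23 and 2.35 CPM in vehicle. All 9 CPI-0209 libraries lay below all 3 vehicle libraries, on TMM-scaled sizes too. The split by position was looked at after the values were seen and has no test. It rested on Hoxb3: without that gene the remaining 7 genes had 17, 12 and 18 counts at 1, 6 and 24 h, against 24 in vehicle. The vehicle libraries then spread from 0.352 to 1.70 CPM and overlapped the others.

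Hoxb3, a hindbrain gene that also acts with Hoxb4 in blood stem cells (GRCm38 chromosome 11, 96323326 to 96347930, plus strand), had 11, 16 and 5 counts in vehicle, 4, 5 and 5 at 1 h, 10, 0 and 1 at 6 h, with 5, 2 and 5 at 24 h. Vehicle had 32 counts in all and each CPI-0209 group 11 to 14. On TMM-scaled sizes the 1 h libraries, at 0.545, 0.570 and 0.538 CPM, lay below the lowest vehicle library at 0.636 CPM, and the 6 and 24 h groups overlapped vehicle. No share of all genes that lay below vehicle in this way is given here, so how common such a split is among sparse genes is not known. In the unfiltered edgeR fit its log2 fold changes were -1.12 at 1 h, -1.20 at 6 h and -1.22 at 24 h, with adjusted p-values of 0.858, 0.674 and 0.858. Hoxb3os, an antisense RNA that overlaps Hoxb3 and Hoxb2, had 8, 0 and 1 counts in vehicle, 0, 8 and 8 at 1 h, 5, 8 and 13 at 6 h, with 2, 29 and 7 at 24 h. Its pooled counts were 9, 16, 26 and 38 in vehicle, at 1 h, 6 h and 24 h, and its edgeR log2 fold change at 24 h, unfiltered, was 2.05 (adjusted p = 0.582). The sources used here do not give the strand setting of the counting, so reads of the pair cannot be told apart where they overlap.

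In the Hoxa cluster the counts were thinner and moved between libraries. Hoxa4, which patterns the neck, had 5, 9, 8 and 13 counts in vehicle, at 1 h, 6 h and 24 h, and Hoxa7 had 8, 10, 1 and 8. Hoxa9, active in progenitors and in leukaemia, had 5, 0 and 2 counts in vehicle, 0, 1 and 9 at 1 h, and none in the 6 libraries at 6 and 24 h.

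Other Hox genes with 10 counts or more followed no common course. Hoxa3, needed for the thymus and parathyroid, had 9, 5, 5 and 6 counts in vehicle, at 1 h, 6 h and 24 h, and overlaps Gm15050, an antisense gene of 309 counts, as well as Hoxa4 and Hoxa5 on its own strand. Hoxa2 had 5, 7, 2 and 1 counts and Hoxa5, a lung regulator, 3, 7, 3 and 3 counts in the same groups. Hoxc6, of the thoracic region, had 3, 8, 3 and 1 counts.

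Of the RNAs that are not translated in the Hox clusters, 9 of 16 listed were at 0 in all libraries. Hotairm1, which is transcribed from the Hoxa cluster in myeloid cells, was the one on this list with enough counts to be tested. It had 42 counts in vehicle, 45 at 1 h, 13 at 6 h and 53 at 24 h. Its log2 fold changes were 0.20, -1.45 and 0.56, with edgeR adjusted p-values of 0.979, 0.342 and 0.902.

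**Figure D4:**
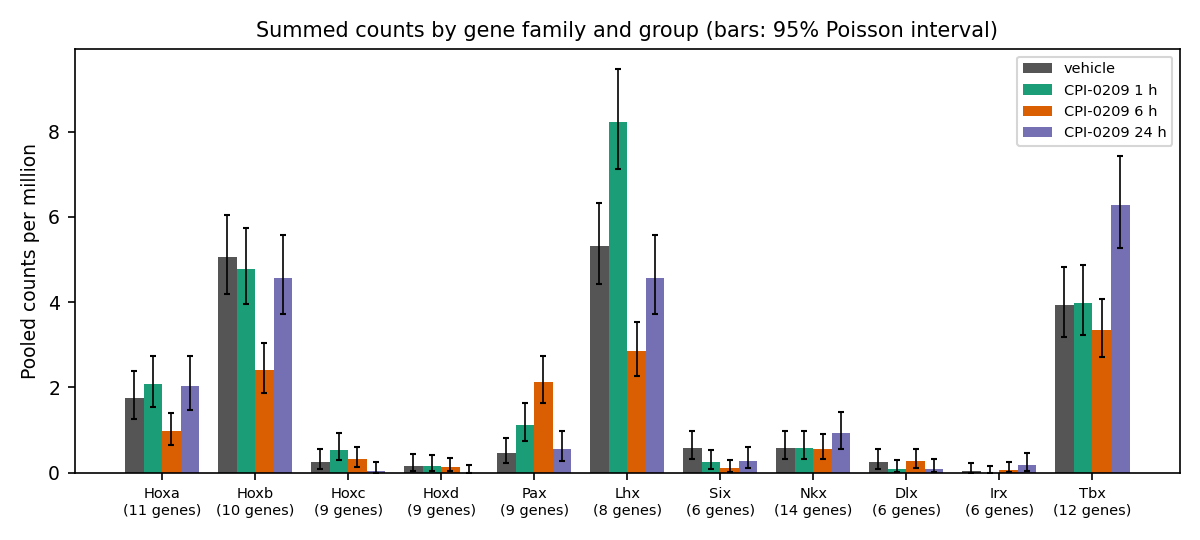
Pooled counts in CPM (vertical axis) by gene family and group, drawn as columns with exact 95% Poisson intervals that cover counting error only. Lhx, Hoxb and Tbx hold most counts, and the Pax family stands highest at 6 h (61 counts, against 11 in vehicle), of which Pax5 made up 35.

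The 2 Pax genes with most counts were Pax9 and Pax5. Pax9, of the thymus, teeth and palate, had 3, 5 and 7 counts at 1 h, 3, 7 and 8 at 6 h, with 2, 4 and 6 at 24 h, against 0, 3 and 1 in vehicle. In total there were 15, 18 and 12 counts at 1, 6 and 24 h, against 4 in vehicle. On TMM-scaled sizes the levels were 0.409, 0.570 and 0.754 CPM at 1 h, 0.448, 0.866 and 1.03 CPM at 6 h, with 0.233, 0.433 and 0.938 CPM at 24 h, against 0, 0.322 and 0.127 CPM in vehicle. All libraries at 1 and 6 h lay above the vehicle libraries on that scale and the 24 h group overlapped them. At 1 h 8.92% of all tested genes had groups apart in this way. No such share is given here for 6 h, or for genes below the count filter such as Pax9. How common this split is among such sparse genes is thus not known. By library totals the lowest 6 h library, at 0.343 CPM, lay under the highest vehicle library at 0.352 CPM. In the unfiltered edgeR fit its log2 fold changes were 1.83, 2.25 and 1.68 at 1, 6 and 24 h, with adjusted p-values of 0.858, 0.455 and 0.858. For the mean of the 3 times the value was 1.92 (SE 1.10, adjusted p = 0.674). Pax9 overlaps the end of Slc25a21, a gene on the other strand with 990 counts, and reads in the overlap cannot be assigned without the strand.

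Pax5, which commits cells to the B lineage (GRCm38 chromosome 4, 44524757 to 44710487, minus strand), had 1, 2 and 2 counts in vehicle, 0, 1 and 0 at 1 h, 0, 3 and 32 at 6 h, and none at 24 h. Library replicate 3 at 6 h alone stood high. In that library the B cell genes Ms4a1, Cd79a, Cd79b, Ebf1 and Blnk were all at 0, and Cd22 had 27 counts, Cr2 73 and Ighm 286. Over the 12 libraries Ms4a1 was at 0 and Cd79a had 2 counts, both in 1 vehicle library. The unfiltered edgeR log2 fold change of Pax5 at 6 h was 2.85 (adjusted p = 0.276). Pax6, the eye regulator, had 8 counts at 1 h, 6 of them in 1 library, 1 in vehicle, 1 at 6 h and none at 24 h.

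The other families stayed at a few counts. Nkx6-2, which patterns ventral spinal cord and oligodendrocytes, had 14 counts in vehicle, 14 at 1 h, 9 at 6 h and 16 at 24 h. Its 3' end overlaps Inpp5a, a gene of 3996 counts on the other strand. Tbx2, of heart and limb, had 5, 2, 1 and 4 counts. Six5 had 4, 1, 2 and 4 counts in vehicle, at 1 h, 6 h and 24 h. The 6 Dlx genes, of forebrain and jaw, had 6, 2, 8 and 2 counts and the 6 Irx genes 1, 0, 2 and 4 counts. Families differed in how many members were detected at 1, 6 and 24 h. There were 4, 5 and 3 T-box genes, against 8 in vehicle, but 1, 5 and 3 Nkx genes, against 1 in vehicle. The Hox genes gave 17, 19 and 11, against 17 in vehicle, and the Pax genes 6, 4 and 1, against 4 in vehicle. The Lhx, Dlx, Irx and sine oculis families differed from vehicle by at most 1 gene at any time.

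Other developmental regulators were about as sparse. A list of 106 more, known as Polycomb targets in other cells, such as Gata4, Sox2 and the Zic genes, had 40 at 0 in all libraries. Its pooled counts were 128 at 1 h, 103 at 6 h and 122 at 24 h, against 159 in vehicle. Gata6 had most, with 22, 6 and 28 counts at 1, 6 and 24 h, against 52 in vehicle, all 52 in 1 library. Foxd2 had 31, 3 and 18 counts, against 13 in vehicle, and Gbx1 had 6, 13 and 13 counts, against 18 in vehicle. Gata6 and Foxd2 were tested and 0 of these 2 were called.

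The factors that act with or on Hox genes were, by contrast, well measured in blood. Of 9 Hox cofactors of the Meis, Pbx and Pknox families 5 were tested and 0 called. Pbx3 came nearest at 6 h, with 22.0 ± 7.12 CPM against 12.7 ± 2.49 CPM in vehicle and a log2 difference of 0.80 (SE 0.26, edgeR adjusted p = 0.0945). Of 12 genes of the KMT2A and DOT1L machinery, which keeps Hox genes active in progenitors, 12 were tested and 1 was called, at 6 h. Mllt3, the YEATS-domain reader AF9 and a fusion partner of KMT2A in leukaemia, rose to 186 ± 26.5 CPM at 6 h, against 50.5 ± 4.61 CPM in vehicle (TMM-scaled; SD, n = 3 each). Its log2 fold change was 1.88 (SE 0.44, edgeR adjusted p = 0.0246), and the median of the 12 genes was -0.04, as was that of all tested genes. The call was lost when any 1 of the 6 libraries at 6 h or in vehicle was left out (log2 fold change 1.76 to 1.96, adjusted p = 0.0538 to 0.102). Reticulocyte genes were higher at 6 h as well, with 12 of 17 called, and their part in the Mllt3 result was not tested.

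The Polycomb genes themselves were not called in any comparison, with 0 of 10 tested PRC2 genes and 0 of 12 tested PRC1 genes. Ezh2, the main catalytic subunit and target of CPI-0209, had 213 ± 16.8 CPM at 1 h, 408 ± 33.4 CPM at 6 h and 219 ± 156 CPM at 24 h, against 280 ± 22.6 CPM in vehicle (SD, n = 3 each). Its log2 fold changes were -0.40, 0.54 and -0.35, with edgeR adjusted p-values of 0.919, 0.430 and 0.846. Ezh1, the second catalytic subunit, had 51.4 ± 12.1 CPM at 1 h, 61.9 ± 3.00 at 6 h and 60.1 ± 11.6 at 24 h, against 53.7 ± 7.32 CPM in vehicle. The lowest adjusted p-values of these 22 genes were at 6 h and did not pass the threshold. Rbbp4, a histone-binding subunit of PRC2, had 117.7 ± 6.02 CPM at 6 h, against 74.8 ± 4.97 CPM in vehicle, a log2 difference of 0.66 (SE 0.19, edgeR adjusted p = 0.0589). Bmi1, a PRC1 subunit, had 52.4 ± 17.5 CPM at 6 h, against 26.6 ± 6.39 CPM in vehicle, a log2 difference of 0.98 (SE 0.30, edgeR adjusted p = 0.0803).

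Lists of epithelial genes and of fibroblast, muscle and endothelial genes were also measured, and the latter consisted mainly of Pecam1 counts. Of 11 epithelial genes 4 (Krt5, Krt14, Upk2 and Cldn4) were at 0 in all libraries, and the list summed to 3.16 to 9.05 CPM at 1 h, 1.71 to 3.11 at 6 h and 3.07 to 12.3 at 24 h, against 3.63 to 5.84 CPM in vehicle. Of 12 genes of fibroblasts, muscle and endothelium 2 (Lum and Myh1) were at 0 in all libraries, 3 were tested and 0 called. The list summed to 167.2 to 210.2 CPM at 1 h, 155.3 to 199.4 at 6 h and 216.9 to 269.7 at 24 h, against 145.3 to 189.2 CPM in vehicle, so all 3 libraries at 24 h lay above the vehicle libraries. Pecam1 alone held 17939 of the 19169 counts of this list over the 12 libraries. At 24 h Kdr, the endothelial VEGF receptor, had 359 counts, against 156 in vehicle, Dcn had 32, against 2, and Col3a1 had 19, against 3. Library replicate 1 at 24 h held 194 of those Kdr counts, 30 of Dcn and 17 of Col3a1. Genes of stem and progenitor cells, where Hoxb4 and its neighbours are active, summed to 230 to 270 CPM at 1 h, 253 to 322 at 6 h and 337 to 373 at 24 h, against 177 to 243 CPM in vehicle, and 4 of the 10 tested were called higher at 6 h. Hoxb4 was not among the genes that rose there. The part of these cell types in the counts was not tested.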

How the data were processed

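Blood RNA from a PAXgene kit was sequenced after rRNA depletion as paired reads on an Illumina HiSeq, per the labels' protocols. The authors deposited whole-number counts per mouse Ensembl gene, not scaled to library size. RSEM is named without a version and hg38 is listed, per the submitters' processing notes, although the identifiers are mouse; the counts may be rounded estimates, and the sources used here do not name aligner, annotation or strand. Positions came from GENCODE M21 (GRCm38).

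Counts were fitted with edgeR 4.0.16 in R 4.3.3 (quasi-likelihood test, TMM, filterByExpr by group, 4 group means, all 12 libraries). Benjamini-Hochberg adjustment ran over the 13384 genes tested (threshold 0.05); the test was checked on simulated data. Sums and numbers of genes detected are descriptions without a test. DESeq2 1.42.0, limma-voom (limma 3.58.1), other scalings and filters, a replicate block and each library left out were alternatives. The members and lists were chosen with earlier results of these data known. Named were the members that passed the filter, others with 10 or more counts, list genes called, and the 3 other developmental genes with most counts; genes named beside these were chosen after their values were seen. Some results that this rule would name are not reported here.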

Additional observations from a re-analysis of the deposited data

Results flagged for a closer look

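With all 12 libraries and no filter on low counts, Pax5 differed among the 3 CPI-0209 times in the edgeR fit (adjusted p = 0.00139). It had 0, 1 and 0 counts at 1 h, 0, 3 and 32 counts at 6 h, with 0 in each library at 24 h. Without library replicate 3 of the 6 h group the adjusted p of Pax5 was 0.819.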

How the results depend on the processing

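No member was called against vehicle at any time, or for the mean of the times, under any alternative: other scalings and filters, DESeq2, limma-voom, only the groups compared, or each library left out (0 in each). Replicate numbers did not pair the libraries: of 18 same-numbered pairs 2 had a correlation of deviations over 0.1 (range -0.11 to 0.17), and the fit with the replicate block called 0 members. Without a low-count filter 1 member, Pax5, differed among the times; without that filter and without library replicate 3 at 6 h, an alternative chosen after seeing the data, 1 other member did, Lhx1 (adjusted p = 0.0161).

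Of 237 fold changes of Lhx1, Tbx6 and Hoxb4 under alternatives 17 changed sign, 0 passed the threshold, and the smallest adjusted p was 0.161. Tbx6 at 6 h became -0.11 with library totals. Leaving out single libraries gave -0.37 to 0.46 for Hoxb4 at 24 h, -0.22 to 0.36 for Hoxb4 over the mean of the times, -0.62 to 0.073 for Lhx1 at 24 h, and -0.22 to 0.27 for Lhx1 over the mean of the times. Tbx6 at 24 h ran from 0.17 to 1.01.

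The summed log2 ratio at 1 h was 0.044 without Lhx1 and -0.20 over the members not tested; at 24 h it was -0.31 over the members not tested; at 6 h it was -0.027 with TMM and -0.02 with DESeq2 size factors. Leaving out single libraries gave 0.15 to 0.32 at 1 h, -0.76 to -0.24 at 6 h and -0.10 to 0.25 at 24 h. Members detected at 1 h were 14 with a count asked for in 2 libraries and 15 with 3 pooled counts; at 6 h they were 14 and 17, and at 24 h 15 and 17. Leaving out 1 CPI-0209 library gave 26 to 28 at 1 h, 31 to 33 at 6 h and 21 to 23 at 24 h, against 38 in the full vehicle group. Leaving out 1 vehicle library gave 30 to 35 in vehicle, against 34, 41 and 25 in the full groups at 1, 6 and 24 h. A pool of 2 libraries is shallower than one of 3, so the sides compared here differ in depth.

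Depth is one limit: with 3 counts as the smallest pooled number taken as seen, levels under 0.105 to 0.139 CPM in a group were not detectable, so silence here means below that level in blood and not absence in rare cells.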
